A study of Mus musculus with 6 samples.

Results

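Glucose breakdown and the response to low oxygen were followed through 35 genes in stimulated mouse regulatory T cells (Tregs) from mice labelled as lacking or having the transcriptional repressor BACH2. The genes were chosen by name: 7 regulators of hypoxia-inducible factor (HIF), 7 targets of HIF outside glycolysis, and 21 genes of glycolysis, from glucose uptake to lactate export. All 35 were found among the 49585 genes of the deposited table. All 35 were at 1 or more FPKM in each library, so each entered the test together with 13766 genes in all. FPKM counts fragments relative to the length of a gene and the size of the library.

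The libraries came from 2 groups of C57BL/6 mice aged 7 weeks. There were 3 libraries labelled Bach2-cKO, a conditional knockout by that label, and 3 wild-type libraries (WT). Splenic cells positive for CD4 and a YFP reporter and negative for the B cell antigen B220 were sorted, and the design text also lists CD25. Both groups were stimulated for 24 hours with plate-bound antibodies to CD3 and CD28, and poly(A) RNA was sequenced. The labels name neither the Cre driver nor the source of the YFP. Replicate numbers run from 1 to 3 per group, and separate mice are not mentioned, so p-values measure the spread between these libraries, which may be technical.

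HIF is a pair of proteins, an alpha subunit that is made all the time and a partner, ARNT, that is stable. In oxygen the EGLN prolyl hydroxylases mark the alpha subunit and the VHL ubiquitin ligase removes it. Without oxygen, or when T cell stimulation raises its level, the pair binds short DNA sites and raises genes of glucose uptake, glycolysis and lactate export. T cells that are stimulated also raise glycolysis through MYC and mTOR signalling.

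Total reads recovered from the FPKM steps ranged from 27703735 to 31976067 in the Bach2-cKO libraries and from 27697735 to 43884431 in the WT libraries. Bach2 itself was at 88.9, 104.5 and 120.8 FPKM in the Bach2-cKO libraries and at 112.0, 111.4 and 99.4 FPKM in the WT libraries (limma adjusted p = 0.812). A value over the whole gene need not show the loss of an exon, and the sources used here do not give the deleted part, so each direction below rests on the labels. The Treg marker Foxp3 was at 104.2 to 153.5 FPKM in the Bach2-cKO libraries and at 107.6 to 127.3 FPKM in the WT libraries (limma adjusted p = 0.786). Of 9 Treg markers, Foxp3 included, 1 rose and 1 fell (11.1% each). That is near the shares over all genes tested, of which 7.02% rose and 8.31% fell. The IL-2 receptor alpha gene Il2ra rose by 0.92 on the log2 scale (limma adjusted p = 0.00186), and the Ikaros family gene Ikzf4 had a log2 difference of -0.46 (limma adjusted p = 0.0209). Of the 7 that did not pass, Cd4 and Trac were lower and Ctla4 was higher in Bach2-cKO with no overlap of the groups. Over all genes tested, 15.5% were higher and 20.1% lower with no overlap. Leaving out 1 library at a time gave 1 to 2 Treg markers that rose and 0 to 4 that fell. Markers of other cells were present. The summed level of 12 B cell markers was 1959 to 2499 FPKM in the Bach2-cKO libraries and 1439 to 2035 FPKM in the WT libraries. Of the 12, 4 rose (33.3%, beside 7.02% of all genes tested). Of 6 CD8 T cell markers 5 rose (83.3%). Their sums were 112.0 to 174.2 FPKM in the Bach2-cKO libraries and 72.7 to 77.9 FPKM in the WT libraries. Of 7 tested plasma cell markers 4 rose (57.1%), Jchain, Mzb1, Xbp1 and Derl3. The sums of the list were 490.2 to 643.3 FPKM in the Bach2-cKO libraries and 312.9 to 347.5 FPKM in the WT libraries. Sdc1, Irf4 and Txndc5 did not pass, and Sdc1 had a log2 fold change of -0.054 (limma adjusted p = 0.863). Tnfrsf17 was not tested, at 0.0442 to 0.154 FPKM in Bach2-cKO and 0.0397 to 0.336 FPKM in WT. None of the markers in these 3 lists was at 0 in all libraries. In the red cell, myeloid and NK cell lists 5 of 7, 4 of 9 and 1 of 6 genes were tested, the last being Tyrobp. These had 0 calls by limma and 0 members with an unadjusted p under 0.05, and limma-voom made 0 calls there. The red cell sums were 204.5, 1034 and 791.9 FPKM in the Bach2-cKO libraries and 182.3 to 517.3 FPKM in WT. The myeloid sums were 29.86, 71.99 and 79.87 FPKM in the Bach2-cKO libraries and 23.99 to 33.99 FPKM in WT. In both lists Bach2-cKO replicate 1 lay far below the other Bach2-cKO libraries, so the lack of calls does not show equal levels. The NK cell sums were 13.78 to 17.76 FPKM in Bach2-cKO and 11.99 to 21.35 FPKM in WT. Of the untested genes, Ncr1 of the NK list and Adgre1 and Itgam of the myeloid list were higher in Bach2-cKO with no overlap. They were at 1.29 FPKM or less in each library, and 0 genes of these lists were lower with no overlap. Without Bach2-cKO replicate 1, 3 myeloid and 1 red cell markers rose. Leaving out 1 library at a time gave 2 to 9 B cell, 2 to 6 CD8 T cell and 3 to 5 plasma cell markers that rose. The part of other cells in the results below was not tested beyond a model with the B cell marker level, given with the counts. In bulk RNA, more cells of a type and more RNA per cell cannot be told apart.

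The promoters of 4 members are shown because HIF is known to act through the core site ACGTG or GCGTG, and because these 4 genes moved in different ways. Egln3 rose, Pdk1 and Ldhb fell, and Ldha, the paralog of Ldhb, did not pass the test given below. The sequences are the 250 bases upstream of a RefSeq gene start on GRCm38.p6, 5′ to 3′ on the strand of the gene, with matches to either core site, on either strand, in capitals.
Egln3, chr12:54203875-54204124, minus strand: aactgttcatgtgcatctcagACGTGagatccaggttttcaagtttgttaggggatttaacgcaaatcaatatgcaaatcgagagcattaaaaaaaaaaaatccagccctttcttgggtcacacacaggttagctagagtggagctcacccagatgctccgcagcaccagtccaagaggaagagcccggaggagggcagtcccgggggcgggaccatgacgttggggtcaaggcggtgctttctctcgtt
Pdk1, chr2:71872974-71873223, plus strand: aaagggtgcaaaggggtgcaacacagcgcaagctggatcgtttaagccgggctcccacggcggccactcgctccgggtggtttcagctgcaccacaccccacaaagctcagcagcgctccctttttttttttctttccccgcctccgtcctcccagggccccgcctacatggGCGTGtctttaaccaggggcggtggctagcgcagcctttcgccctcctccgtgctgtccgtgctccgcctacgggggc
Ldha, chr7:46845554-46845803, plus strand: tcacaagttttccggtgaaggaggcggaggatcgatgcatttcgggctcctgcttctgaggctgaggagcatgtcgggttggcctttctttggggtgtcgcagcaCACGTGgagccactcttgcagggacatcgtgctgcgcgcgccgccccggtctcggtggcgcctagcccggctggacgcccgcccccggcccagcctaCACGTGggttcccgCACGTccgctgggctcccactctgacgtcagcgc
Ldhb, chr6:142507958-142508207, minus strand: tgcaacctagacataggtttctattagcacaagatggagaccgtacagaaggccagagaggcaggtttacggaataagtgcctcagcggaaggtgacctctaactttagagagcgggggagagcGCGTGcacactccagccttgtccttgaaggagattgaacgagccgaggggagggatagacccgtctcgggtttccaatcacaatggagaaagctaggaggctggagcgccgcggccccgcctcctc
Egln3, Pdk1 and Ldhb held 1 match each. Ldha held 5 matches at 3 places, since the palindrome CACGTG holds a match on each strand and is present at both of the wider places. Of the 32 members with a listed promoter, 24 held a match to one of the core sites (75.0%), against 10431 of 27025 genes over windows of the same length (38.6%). The share was 5 of 7 among members that rose, 3 of 3 among members that fell and 16 of 22 among the rest. The members were chosen as genes of HIF and glycolysis, and the 27025 genes include genes that were not tested. Windows of members used the listed start nearest to the annotated gene start. The 27025 windows used the first listed start of each gene. The gap between 75.0% and 38.6% is therefore a description. TGAGTCA, the core of sites bound by BACH2 and by AP-1, was in 0 of the 32 windows and in 4.43% of all windows. With 32 windows, 0 cannot be told apart from that rate. Epas1, Bnip3l and Slc2a3 had no entry. A match is a run of letters and shows no binding.

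Of the 35 genes, 8 rose, 3 fell and 24 did not pass the test. The test was limma on log2(FPKM + 1) over all genes, with a Benjamini-Hochberg adjusted p under 0.05. The genes that rose were Hif1a, Epas1, Egln3, Vegfa, Slc2a1, Hk2, Pfkp and Aldoa, and those that fell were Pdk1, Pfkm and Ldhb. Over all genes tested 7.02% rose and 8.31% fell (15.3% in either direction), beside 22.9% and 8.57% of members. The members were chosen with earlier results of these data known. Each member reached 1 FPKM in each library, where the filter asked for 3 libraries, so the shares are not like for like. Their difference was not tested. By class, 3 of 7 HIF regulators rose and 0 fell. Of the 7 HIF targets outside glycolysis 1 rose and 1 fell, and of the 21 glycolysis genes 4 rose and 2 fell. The median log2 fold change was 0.055 for HIF regulators, -0.18 for the other HIF targets and 0.21 for glycolysis genes, against -0.017 over all genes tested. The classes were not tested against each other. The values of the groups did not overlap for 14 members, 8 higher and 6 lower in Bach2-cKO, where 15.5% of all genes were higher and 20.1% lower without overlap (35.6% in all). The 8 that rose became 5 without Bach2-cKO replicate 1, WT replicate 1 or WT replicate 2. For glycolysis genes the 4 that rose became 2, and the 2 that fell became 1, without replicate 1 or 2 of either group. Without Bach2-cKO replicate 1 the median of glycolysis genes was 0.062, and without WT replicate 3 it was 0.34. The median of the other HIF targets was -0.071 without Bach2-cKO replicate 2 and -0.11 without WT replicate 3. That of HIF regulators was 0.036 without Bach2-cKO replicate 3, and 0.154, 0.109 and 0.118 without Bach2-cKO replicate 2, WT replicate 2 and WT replicate 3. With the B cell marker level in the model the medians were 0.255 for HIF regulators, 0.079 for the other HIF targets, a change of sign, and 0.443 for glycolysis genes. Without Bach2-cKO replicate 3 of the other HIF targets 2 fell in place of 1. When the mean level of the B cell markers was added to the model, Egln3 alone among the members passed. All 11 genes kept their sign with it, their log2 fold changes were 0.66 to 1.58 times those without it and their standard errors were at a median of 1.66 times.

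**Figure D1:**
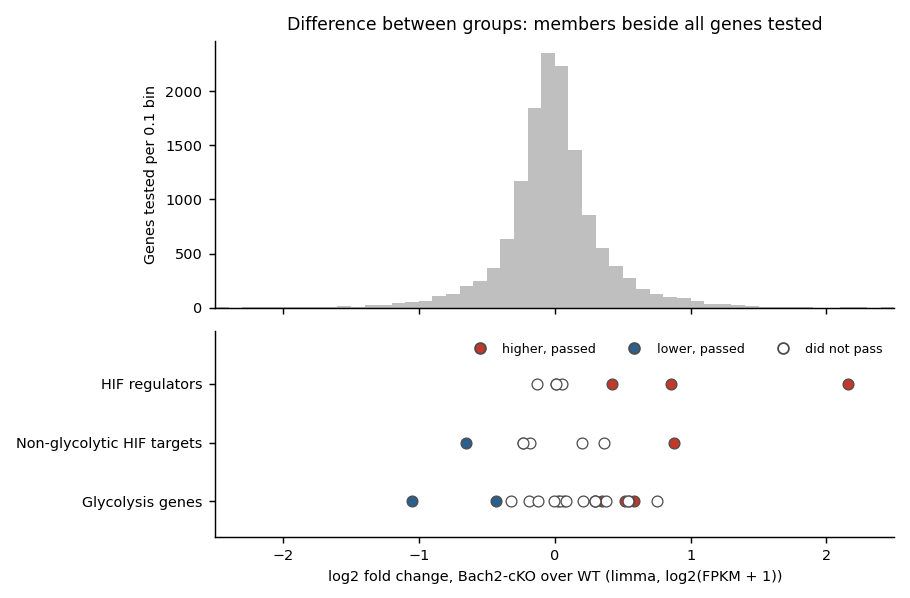
The upper panel counts the 13766 genes tested by their log2 fold change, Bach2-cKO over WT, in bins of 0.1, with the few genes beyond the axis placed in the outermost bins. The lower panel places each member by class on the same axis, filled red where it was higher and blue where it was lower past the threshold, and HIF regulators have 3 red and 0 blue points.

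The RNA of the HIF alpha subunits Hif1a and Epas1 rose in Bach2-cKO and that of their partner Arnt did not pass the test. The alpha subunit gene Hif3a, not of the 35 and named after its values were seen, was too low to test. It was at 0.570 to 1.02 FPKM in Bach2-cKO and at 0.261 to 0.612 FPKM in WT. Hif1a, the main alpha subunit of T cells (chromosome 12, 73901375 to 73947530, GRCm38), was at 223.2, 203.0 and 231.7 FPKM in the Bach2-cKO libraries and at 163.1, 143.1 and 185.0 FPKM in the WT libraries. The lowest Bach2-cKO library was above the highest WT library. The log2 fold change was 0.43 (SE 0.10, limma adjusted p = 0.0289). Epas1 encodes HIF-2 alpha, best known from endothelium and erythropoietin-making cells (chromosome 17, 86753907 to 86833410). It was at 15.1, 14.3 and 7.17 FPKM in the Bach2-cKO libraries and at 2.46, 1.37 and 1.74 FPKM in the WT libraries. The means were 12.2 ± 4.35 FPKM in Bach2-cKO and 1.85 ± 0.553 FPKM in WT (SD, n = 3 each), 6.57 times as high, with a log2 difference of 2.16 (SE 0.27, limma adjusted p = 0.00273). This was the largest rise among the 35 members, and Bach2-cKO replicate 3 lay between the WT libraries and the other two of its group. Epas1 made up 5.30% ± 1.99 of the summed FPKM of Hif1a and Epas1 in Bach2-cKO and 1.12% ± 0.314 in WT (SD, n = 3 each). Arnt, the shared partner, was at 38.1 to 42.2 FPKM in Bach2-cKO and at 38.6 to 41.7 FPKM in WT (limma adjusted p = 0.936). The call of Hif1a was lost without Bach2-cKO replicate 1 or 3 and without WT replicate 1 or 2, with an adjusted p of 0.0125 to 0.0947 over 15 alternatives. A gene on the opposite strand, Gm15283, overlaps Hif1a, and the sources used here do not say whether counting used strand.

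Among the genes that remove HIF alpha, the inducible hydroxylase Egln3 rose and the others did not pass. Egln3, itself a HIF target (chromosome 12, 54178981 to 54203860), was at 16.6, 14.5 and 15.4 FPKM in the Bach2-cKO libraries and at 8.11, 7.67 and 8.59 FPKM in the WT libraries. Replicates lay close together in each group, and the means of 15.5 ± 1.04 FPKM in Bach2-cKO and 8.12 ± 0.456 FPKM in WT (SD, n = 3 each) gave a log2 difference of 0.85 (SE 0.089, limma adjusted p = 0.00126). It passed under all 15 alternatives, the only member to do so. Egln1, the main oxygen sensor of this family, averaged 15.9 ± 2.06 FPKM in Bach2-cKO and 15.3 ± 1.25 FPKM in WT. Egln2, the most abundant of the 3 per length, averaged 83.6 ± 5.45 FPKM in Bach2-cKO and 83.4 ± 11.2 FPKM in WT (SD, n = 3 each; limma adjusted p = 0.78 and 0.963 for Egln1 and Egln2). Vhl, the substrate receptor of the ubiquitin ligase, was at 38.2 to 40.7 FPKM in Bach2-cKO and at 41.1 to 44.4 FPKM in WT. Its groups did not overlap, but the log2 difference of -0.13 (SE 0.062) did not pass (limma adjusted p = 0.198).

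The HIF targets outside glycolysis did not move as 1 group. Vegfa, which encodes the angiogenic factor VEGF-A (chromosome 17, 46016993 to 46032369), was at 32.7, 46.5 and 40.0 FPKM in the Bach2-cKO libraries and at 20.6, 22.3 and 19.8 FPKM in the WT libraries. All Bach2-cKO libraries were above all WT libraries, with a log2 difference of 0.88 (SE 0.12, limma adjusted p = 0.00397). Pdk1, the kinase that inhibits pyruvate dehydrogenase and so limits the oxidation of pyruvate, went the other way (chromosome 2, 71873224 to 71903858). It was at 25.3, 24.4 and 25.0 FPKM in the Bach2-cKO libraries and at 41.3, 38.9 and 38.9 FPKM in the WT libraries. The SD was 0.442 FPKM in Bach2-cKO and 1.38 FPKM in WT (n = 3 each), and the log2 fold change was -0.65 (SE 0.060, limma adjusted p = 0.000858). The other 5 members did not pass. The mitophagy receptor genes Bnip3 and Bnip3l had log2 fold changes of 0.20 and -0.23, with limma adjusted p of 0.267 and 0.092. Bnip3 was at 9.65 to 12.6 FPKM in Bach2-cKO and 9.62 to 9.93 FPKM in WT, and Bnip3l was at 85.3 to 104.5 FPKM in Bach2-cKO and 108.1 to 110.6 FPKM in WT. Ankrd37, an ankyrin repeat gene, averaged 3.41 ± 0.887 FPKM in Bach2-cKO and 2.46 ± 0.814 FPKM in WT. P4ha1, a collagen prolyl hydroxylase subunit, was at 13.3 to 17.2 FPKM in Bach2-cKO and at 16.4 to 20.1 FPKM in WT. Mxi1, a MAX partner that opposes MYC, averaged 9.52 ± 1.10 FPKM in Bach2-cKO and 11.3 ± 0.850 FPKM in WT (SD, n = 3 each). The limma adjusted p of the last 3 was 0.319, 0.35 and 0.187.

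**Figure D2:**
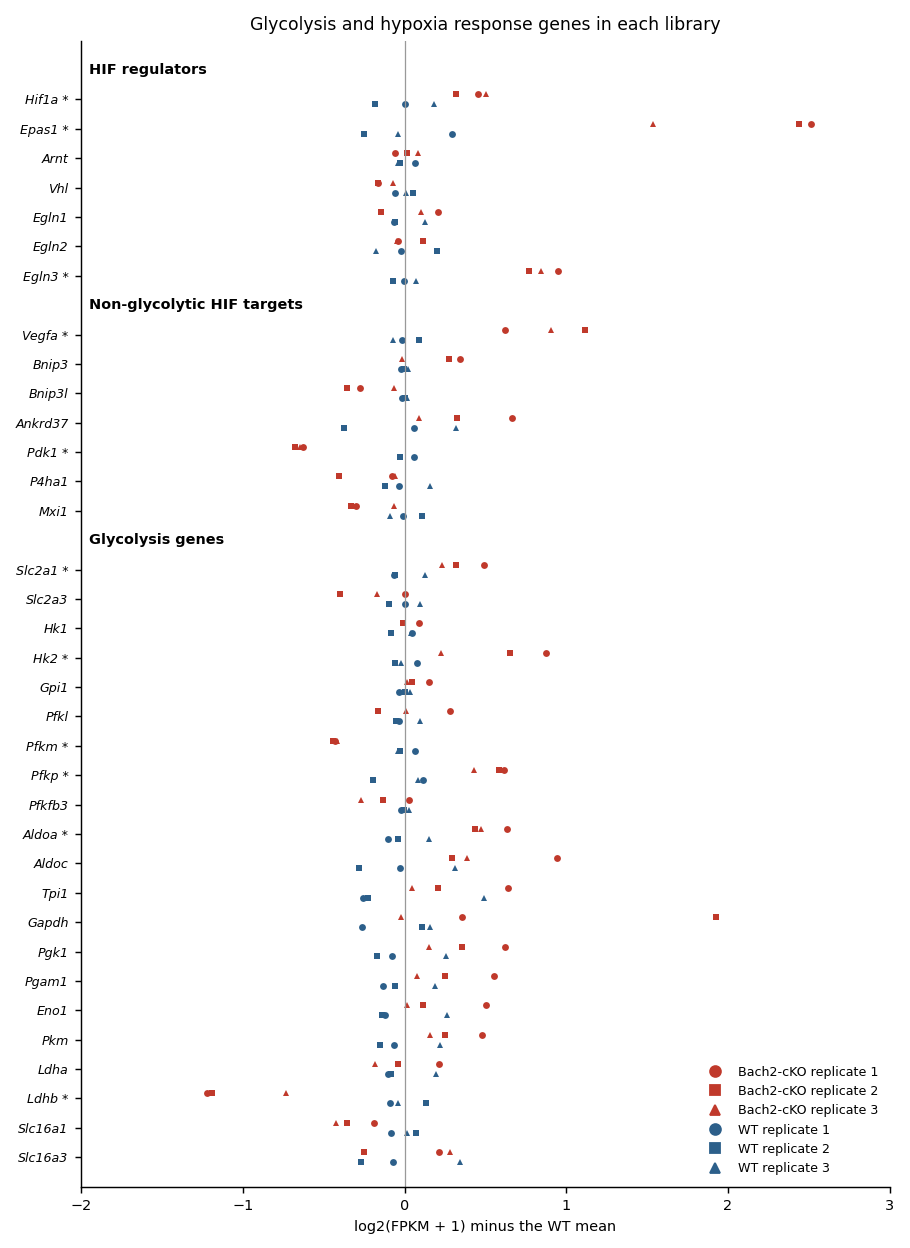
Each row is a member and each point a library, as log2(FPKM + 1) minus the mean of the WT libraries, with Bach2-cKO points (red) above WT points (blue) and an asterisk by genes that passed the test. The points farthest to the right are Epas1 in Bach2-cKO replicates 1 and 2, and those farthest to the left are Ldhb in the same libraries.

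At glucose entry, 1 of 2 transporters and 1 of 2 hexokinases rose. Slc2a1, which encodes the transporter GLUT1 (chromosome 4, 119108711 to 119137983), was at 40.8, 36.0 and 33.9 FPKM in the Bach2-cKO libraries and at 27.4, 27.5 and 31.4 FPKM in the WT libraries. The groups did not overlap, and the log2 fold change was 0.35 (SE 0.091, limma adjusted p = 0.042). Slc2a3, which encodes the high-affinity transporter GLUT3, was at 45.6 to 60.6 FPKM in Bach2-cKO and at 56.3 to 64.5 FPKM in WT (limma adjusted p = 0.28). Within a library, the FPKM of Slc2a1 was 0.698 ± 0.0815 times that of Slc2a3 in Bach2-cKO and 0.475 ± 0.0202 times in WT (SD, n = 3 each), with no overlap. Hk2, the hexokinase that stimulated cells induce (chromosome 6, 82725025 to 82774454), was at 16.6, 14.1 and 10.3 FPKM in the Bach2-cKO libraries and at 9.17, 8.26 and 8.49 FPKM in the WT libraries. Bach2-cKO replicate 3 lay close to WT, and the log2 difference of 0.58 (SE 0.16) passed narrowly (limma adjusted p = 0.0482). Hk1, the constitutive hexokinase and the more abundant per length, was at 138.8 to 148.9 FPKM in Bach2-cKO and at 132.0 to 144.4 FPKM in WT (limma adjusted p = 0.848). The call of Slc2a1 was lost without replicate 1 or 2 of either group, with an adjusted p of 0.0208 to 0.183 over 15 alternatives. That of Hk2 was lost without Bach2-cKO replicate 1 or 2 or any WT library, with 0.00564 to 0.237, and the genes Mir1957a and Gm12867 overlap Slc2a1.

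At the committed step of glycolysis the phosphofructokinase isoforms moved in different directions. Pfkp, the platelet-type phosphofructokinase (chromosome 13, 6579768 to 6648777), was at 255.0, 249.4 and 223.2 FPKM in the Bach2-cKO libraries and at 179.4, 144.9 and 175.6 FPKM in the WT libraries. The log2 fold change was 0.54 (SE 0.096, limma adjusted p = 0.01). Pfkm, the muscle type (chromosome 15, 98092589 to 98132447), was at 5.31, 5.27 and 5.36 FPKM in the Bach2-cKO libraries and at 7.91, 7.35 and 7.28 FPKM in the WT libraries. The difference on the log2 scale was -0.43 (SE 0.093, limma adjusted p = 0.0205). Pfkl, the liver type, was at 48.6 to 66.5 FPKM in Bach2-cKO and at 52.5 to 58.3 FPKM in WT (limma adjusted p = 0.846). Of the summed FPKM of the 3 isoforms, Pfkp made up 79.7% ± 2.25 in Bach2-cKO and 72.7% ± 1.92 in WT. The sum was 304.5 ± 21.7 FPKM in Bach2-cKO and 228.8 ± 20.8 FPKM in WT (SD, n = 3 each). Pfkfb3, whose product makes the activator fructose 2,6-bisphosphate, was at 60.2 to 74.2 FPKM in Bach2-cKO and at 71.6 to 74.4 FPKM in WT (limma adjusted p = 0.333). The call of Pfkm was lost without replicate 1 or 2 of either group, with an adjusted p of 0.00903 to 0.265 over 15 alternatives. Pfkp overlaps Pitrm1 and Pfkm overlaps Senp1, both on the opposite strand.

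Below that step Aldoa rose and the other enzymes did not pass. Aldoa, the aldolase of most tissues (chromosome 7, 126795234 to 126809108), was at 721.7, 628.3 and 644.5 FPKM in the Bach2-cKO libraries and at 431.6, 450.8 and 514.7 FPKM in the WT libraries. The means of 664.8 ± 49.9 FPKM in Bach2-cKO and 465.7 ± 43.5 FPKM in WT (SD, n = 3 each) gave a log2 difference of 0.51 (SE 0.090, limma adjusted p = 0.00947). Aldoc, a brain-type aldolase, averaged 16.1 ± 4.40 FPKM in Bach2-cKO and 10.7 ± 2.46 FPKM in WT (limma adjusted p = 0.124). Gpi1, the isomerase that precedes phosphofructokinase, was at 326.8 to 359.4 FPKM in Bach2-cKO and 315.5 to 330.7 FPKM in WT (limma adjusted p = 0.48). Triose phosphate isomerase (Tpi1), phosphoglycerate kinase (Pgk1), phosphoglycerate mutase (Pgam1), enolase 1 (Eno1) and the muscle-type pyruvate kinase (Pkm) had log2 fold changes of 0.30, 0.38, 0.29, 0.21 and 0.29. Their limma adjusted p was 0.126 to 0.414. Pkm was at 1018, 867.1 and 812.0 FPKM in the Bach2-cKO libraries and at 696.8, 657.9 and 847.7 FPKM in the WT libraries, the highest mean of the 35 members. Pgk1 was at 278.3, 230.9 and 200.3 FPKM in the Bach2-cKO libraries and at 170.4, 159.8 and 215.2 FPKM in the WT libraries. In both genes WT replicate 3 lay above Bach2-cKO replicate 3.

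Gapdh, the dehydrogenase often used to normalise other genes, cannot be read here with confidence. It was at 20.0, 61.3 and 15.2 FPKM in the Bach2-cKO libraries and at 12.7, 16.7 and 17.3 FPKM in the WT libraries, far under the neighbouring steps, and Bach2-cKO replicate 2 stood apart. The log2 fold change was 0.75 (SE 0.45, limma adjusted p = 0.3), and 0.17 without Bach2-cKO replicate 2. Of its distinct 50-base stretches 25.1% also occur in other genes of the GENCODE M21 annotation, 223 genes of which 213 are pseudogenes. The share was 53.9% for Pgk1, 47.2% for Bnip3, 36.2% for Pgam1, 26.0% for Eno1, 25.8% for Pkm and 20.8% for Bnip3l, and for Ldhb it was 339 of 1615 stretches, all shared with the pseudogene Gm5514. The sources used here do not say how reads that match several places were counted, so the levels of these 8 genes are uncertain.

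At the last step, Ldhb fell and Ldha did not pass. Ldha encodes the A subunit of lactate dehydrogenase, which favours lactate production. It was at 711.7, 596.2 and 540.2 FPKM in the Bach2-cKO libraries and at 570.2, 576.9 and 699.7 FPKM in the WT libraries. The log2 fold change was -0.002 (SE 0.12, limma adjusted p = 0.994). Ldhb, the B subunit, which favours the return to pyruvate (chromosome 6, 142490249 to 142507957), was at 13.8, 14.1 and 19.8 FPKM in the Bach2-cKO libraries and at 31.5, 37.0 and 32.5 FPKM in the WT libraries. Its log2 difference of -1.05 (SE 0.14, limma adjusted p = 0.0033) was the largest fall among the members. Within a library, the FPKM of Ldha was 40.3 ± 12.2 times that of Ldhb in Bach2-cKO and 18.4 ± 2.96 times in WT (SD, n = 3 each), with no overlap. Of the lactate transporters, Slc16a1, which encodes MCT1, was at 8.65 to 10.4 FPKM in Bach2-cKO and at 11.3 to 12.6 FPKM in WT. These ranges did not overlap, with a log2 difference of -0.32 that did not pass (SE 0.097, limma adjusted p = 0.0618). Slc16a3, which encodes MCT4, was at 57.1 to 82.9 FPKM in Bach2-cKO and at 56.4 to 86.6 FPKM in WT (limma adjusted p = 0.809).

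**Figure D3:**
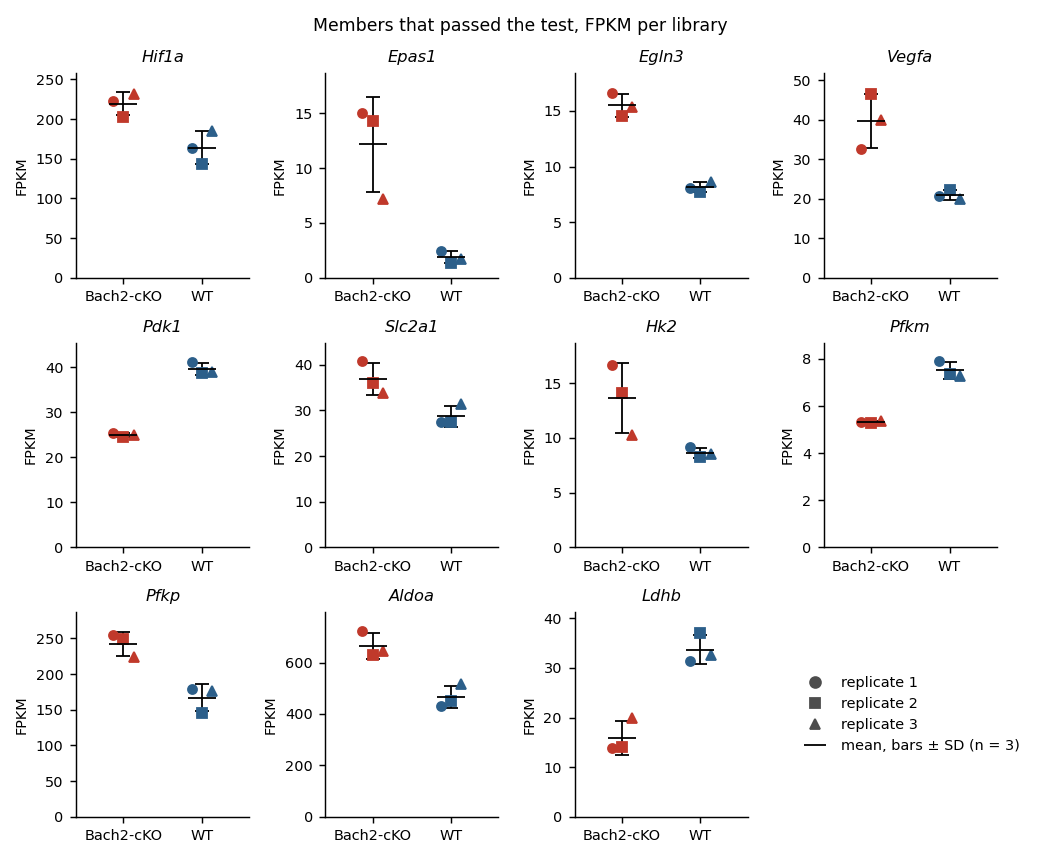
Each panel shows 1 of the 11 genes that passed the test, with the FPKM of each library, Bach2-cKO left and WT right, and the mean with bars of 1 SD (n = 3). In all 11 panels the groups do not overlap, and Bach2-cKO replicate 3 (triangle) is the Bach2-cKO library nearest to WT for Epas1, Slc2a1, Hk2, Pfkm, Pfkp and Ldhb.

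Among enolases, phosphofructokinases and lactate dehydrogenases, the most abundant form made up a larger share in Bach2-cKO. Eno2 and Eno3, the neuronal and muscle enolases and no members of the 35, are part of a list of other glycolysis genes. Eno3 was at 24.7, 27.0 and 26.6 FPKM in the Bach2-cKO libraries and at 83.5, 78.2 and 78.2 FPKM in the WT libraries (log2 fold change -1.58, SE 0.063, limma adjusted p = 3.99e-05). Eno2 was at 16.8, 14.8 and 15.3 FPKM in the Bach2-cKO libraries and at 37.5, 33.5 and 33.5 FPKM in the WT libraries (log2 fold change -1.10, limma adjusted p = 0.000386). Both passed under all 15 alternatives. Eno1 made up 92.5% ± 1.23 of the summed FPKM of the 3 enolases in Bach2-cKO and 79.6% ± 2.87 in WT, while the sum was 569.5 ± 98.8 FPKM in Bach2-cKO and 569.7 ± 71.4 FPKM in WT (SD, n = 3 each). Ldha made up 97.4% ± 0.850 of lactate dehydrogenase in Bach2-cKO and 94.8% ± 0.789 in WT. In the hexokinase, HIF alpha and EGLN families a minor form made up a larger share instead. Hk2 made up 8.56% ± 1.69 of Hk1, Hk2 and Hk3 in Bach2-cKO and 5.72% ± 0.185 in WT. Egln3 made up 13.5% ± 1.09 of the EGLN genes in Bach2-cKO and 7.67% ± 1.10 in WT. Among aldolases Aldoa made up 97.7% ± 0.441 in Bach2-cKO and 97.8% ± 0.352 in WT, with overlap. Of Pdk1, Pdk2 and Pdk3, Pdk1 made up 34.1% ± 1.06 in Bach2-cKO and 43.8% ± 1.12 in WT, where it was the most abundant (SD, n = 3 each). Pdk3 made up 44.9% ± 6.21 in Bach2-cKO and 31.8% ± 4.61 in WT. The shares were not tested.

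**Figure D4:**
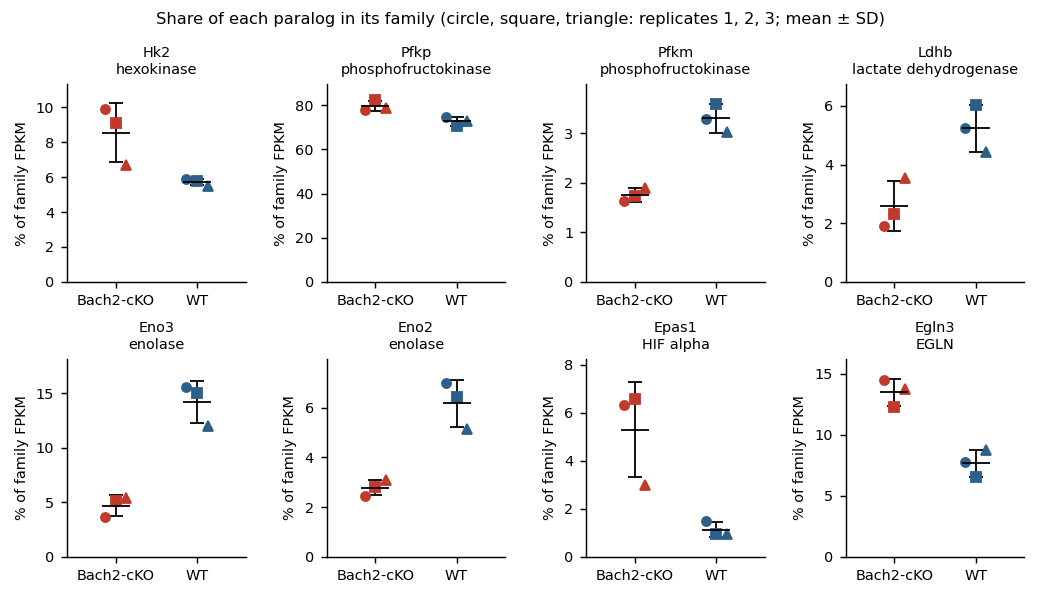
Each panel gives the share of a paralog in the summed FPKM of its family, in percent, for each library (Bach2-cKO left, WT right), with the mean and bars of 1 SD (n = 3). The groups do not overlap in any of the 8 panels, and Eno3 is at 4.69% in Bach2-cKO and 14.2% in WT on average.

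Libraries of the same group differed in several lower glycolytic genes. Tpi1, Pgk1, Pgam1, Eno1, Pkm and Ldha were each highest in replicate 1 and lowest in replicate 3 among the Bach2-cKO libraries, and each highest in replicate 3 among the WT libraries. They were grouped for this order after their values were seen, so the order is a description. Gapdh was highest in Bach2-cKO replicate 2, and Aldoa and Aldoc were lowest of the Bach2-cKO libraries there. The mean of the 6 genes on the log2(FPKM + 1) scale, relative to the mean of the 6 libraries, was 0.38, 0.066 and -0.079 in the Bach2-cKO libraries, in the order of their numbers, and -0.25, -0.26 and 0.14 in the WT libraries. The mean of 15 proliferation genes was likewise highest in Bach2-cKO replicate 1 and WT replicate 3 and lowest of its group in Bach2-cKO replicate 3, at 0.51, 0.36 and -0.21 in the Bach2-cKO libraries and at -0.38, -0.30 and 0.025 in the WT libraries. Of the proliferation genes 0 passed in limma with all libraries, 13 rose without Bach2-cKO replicate 3, and 1 rose by limma-voom. With all libraries 7 of these 15 had an unadjusted p under 0.05. The part of proliferation in the level of these genes was not tested. The mean of the 3 HIF subunits was highest in replicate 1 of both groups, as was Epas1, while Hif1a was highest in replicate 3 of both groups. That mean was at 0.54, 0.49 and 0.28 in the Bach2-cKO libraries and at -0.31, -0.59 and -0.40 in the WT libraries.

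**Figure D5:**
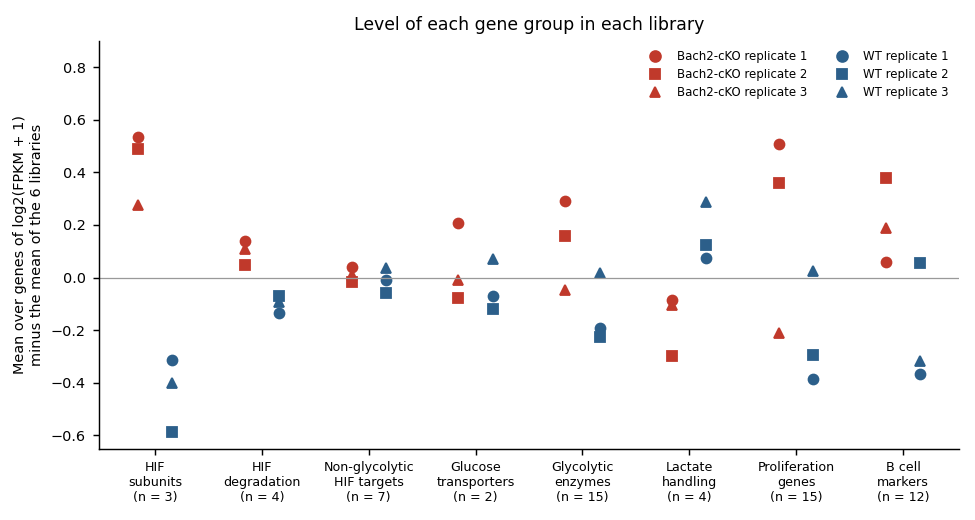
For each gene group the mean over its genes of log2(FPKM + 1), minus the mean of the 6 libraries, is plotted per library, with Bach2-cKO (red) left of WT (blue) and the replicate given by the shape. Bach2-cKO and WT libraries separate for the HIF subunits, HIF degradation and lactate handling, and overlap for glycolytic enzymes and proliferation genes. HIF degradation and lactate handling hold 1 gene each that passed the test, Egln3 and Ldhb. The B cell markers separate narrowly, with the lowest Bach2-cKO library at 0.060 and the highest WT library at 0.056.

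Other genes of these pathways were read from 6 lists fixed by role, and these too were chosen with earlier results of these data known. Over the 6 lists 11 genes rose and 4 fell of 94 tested, 11.7% and 4.26%, beside 7.02% and 8.31% of all genes. The 11 became 4 or 5 without Bach2-cKO replicate 1 or 2 or WT replicate 1 or 2, and the 4 that fell became 8 without Bach2-cKO replicate 3. Of 16 tested other glycolysis genes 2 rose and 2 fell. Besides both enolases, these were Slc2a6 and Pgm1. The lysosomal sugar transporter gene Slc2a6 was at 37.5 ± 4.20 FPKM in Bach2-cKO and 19.7 ± 2.94 FPKM in WT (log2 fold change 0.90, limma adjusted p = 0.0034). The phosphoglucomutase family gene deposited as Pgm1 (chromosome 5, 64092950 to 64128351) was at 30.5 ± 1.76 FPKM in Bach2-cKO and 22.3 ± 3.43 FPKM in WT (SD, n = 3 each, limma adjusted p = 0.0375). Its relative deposited as Pgm2 (chromosome 4), named after its values were seen, had a log2 fold change of 0.12 and did not pass (limma adjusted p = 0.56). The call of Pgm1 was lost without Bach2-cKO replicate 1 or 2 or WT replicate 2 or 3, which left Slc2a6 as the 1 that rose. Of 13 other HIF regulators 2 rose, Arnt2, a relative of Arnt, and Cul2, the scaffold of the VHL ligase, by 0.72 and 0.25 on the log2 scale (limma adjusted p = 0.0474 and 0.0435). The 2 became 0 without WT replicate 1 or 2 or any Bach2-cKO library, and 1 without WT replicate 3.

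Of 29 tested other HIF targets 2 rose and 0 fell, against 7.02% and 8.31% of all genes. Ero1l, an oxidase of the endoplasmic reticulum, was at 16.2 ± 1.13 FPKM in Bach2-cKO and 10.8 ± 0.619 FPKM in WT (limma adjusted p = 0.00681), and the transferrin receptor gene Tfrc at 72.9 ± 2.10 FPKM in Bach2-cKO and 60.2 ± 3.62 FPKM in WT (SD, n = 3 each; limma adjusted p = 0.0288). The call of Tfrc was lost without replicate 1 or 2 of either group, and without Bach2-cKO replicate 3 of these targets 3 fell. Of 11 tested genes for pyruvate entry to mitochondria, among them the pyruvate dehydrogenase subunits, 0 passed in limma, with 3 at an unadjusted p under 0.05 and 0 passing by limma-voom; 1 fell without Bach2-cKO replicate 3. Pdk2 and Pdk3, relatives of Pdk1 named after their values were seen, had log2 fold changes of -0.51 and 0.19 (limma adjusted p = 0.116 and 0.424).

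In the pentose phosphate and serine branches 5 of 12 genes rose and 1 fell (41.7% and 8.33%), beside 7.02% and 8.31% of all genes. Shmt2, the mitochondrial serine hydroxymethyltransferase, was at 120.6, 148.8 and 126.3 FPKM in the Bach2-cKO libraries and at 83.7, 90.6 and 81.2 FPKM in the WT libraries (log2 fold change 0.62, limma adjusted p = 0.00427). Phgdh, which starts serine synthesis from a glycolytic intermediate, was at 257.3, 276.1 and 259.9 FPKM in the Bach2-cKO libraries and at 189.3, 209.8 and 189.6 FPKM in the WT libraries (log2 fold change 0.43, limma adjusted p = 0.00536). Psat1, the aminotransferase of that route, rose by 0.40 on the log2 scale and Rpia, an isomerase of the pentose phosphate branch, by 0.29 (limma adjusted p = 0.0302 and 0.0329). Psph rose by 0.28 and the cytosolic Shmt1 fell by 0.36 on the log2 scale, both named after their values were seen. Rpia was the only pentose phosphate gene to pass. G6pdx, Pgls, Pgd, Rpe, Tkt and Taldo1, named after their values were seen, did not pass (limma adjusted p = 0.149 to 0.884). The 5 that rose became 2, Shmt2 and Phgdh, without replicate 1 or 2 of either group, and the 1 that fell became 0 without any 1 library. Of 15 tested growth and nutrient regulators 0 rose and 1 fell, and that 6.67% is near the 8.31% of all genes that fell. This was Txnip, whose product restrains glucose uptake, at 220.2, 233.5 and 273.1 FPKM in the Bach2-cKO libraries and at 389.0, 404.6 and 373.8 FPKM in the WT libraries (log2 fold change -0.69, limma adjusted p = 0.00279). Without Bach2-cKO replicate 1 of these regulators 2 fell. Myc, also named after its values were seen, was at 32.0 ± 7.08 FPKM in Bach2-cKO and 43.7 ± 2.36 FPKM in WT (SD, n = 3 each; limma adjusted p = 0.0823).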

How the data were processed

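The authors deposited 1 FPKM table for 6 libraries, and 6 of 6 sample files equalled it. Per the submitters' processing notes, reads were processed with HISAT2 2.0.5 and featureCounts 1.5.0-p3 on mm9. The positions in the table equal those of GENCODE M21 (GRCm38) for 45128 of 49326 shared gene identifiers (91.5%), so positions are given on GRCm38. Library totals were found from the steps between FPKM values at annotated lengths. With these totals, values were whole reads at a tolerance of 0.001 reads at the annotated length for 11267 of 28530 genes above 0. For the other 17263 other lengths were searched and the smallest that gave whole reads was taken. Such a search can hardly fail for genes with reads in few libraries, so its success is no check of the totals.

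Genes that reached 1 FPKM in 3 or more libraries entered limma 3.58.1 (R 4.3.3, trend) on log2(FPKM + 1), Bach2-cKO minus WT. This scale understates the change of low genes. P-values were two-sided and Benjamini-Hochberg adjusted over 13766 genes, with calls under 0.05. The limma script was tested on simulated data. Alternatives were 15: scaling, test, filter, pseudocount, replicate block, B cell score, variance estimate and each library left out. Promoters are from RefSeq (GRCm38.p6), matched for 32 of 35 genes. Figures were drawn with Matplotlib 3.10.9 in Python 3.11.15.

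The members and lists were chosen with earlier results of these data known. All 35 members are described, and of each pathway list up to 4 genes past the threshold with the smallest adjusted p are named, with exceptions marked.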

Additional observations from a re-analysis of the deposited data

How the results depend on the processing

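Over 15 alternatives for each of 35 members (525 in all), 467 kept their direction and side of the threshold, 34 lost and 2 gained a call, and 22 changed sign. Both gains were Bnip3l without Bach2-cKO replicate 3 (limma adjusted p = 0.0137) and Slc16a1 by limma-voom (adjusted p = 0.0291). The cause of these changes was not tested.

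With no filter on low values, more genes were tested, and 501 rose and 681 fell of all genes. Among the members 5 then rose, among glycolysis genes 2 rose and 1 fell, and in the pathway lists 4 rose. With the B cell score in the model, 97 genes rose and 109 fell of all genes. Among the members 1 rose and 0 fell. Of HIF regulators 1 rose, of the other HIF targets 0 rose and 0 fell, of glycolysis genes 0 rose and 0 fell, and in the pathway lists 0 rose and 2 fell. The medians were then 0.255 for HIF regulators, 0.079 for the other HIF targets and 0.443 for glycolysis genes on the log2 scale. The score correlated with the group at 0.79 over the 6 libraries, so score and group are partly confounded.

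Deviations of same-numbered libraries from their group means correlated at -0.053, 0.006 and -0.215. For libraries with different numbers the correlations were -0.134 to 0.177. Deviations cancel out within each group for every gene, so these values cannot decide whether same-numbered libraries belong together. With the replicate block, 625 genes rose and 657 fell of all genes, 2 glycolysis genes rose and 1 fell, and 5 genes of the pathway lists rose.

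With 1 library left out at a time, 485 to 1200 genes rose and 511 to 1378 fell, and 5 to 7 members rose. Of glycolysis genes 2 to 4 rose and 1 to 2 fell, of the other HIF targets 1 to 2 fell, and in the pathway lists 4 to 9 rose and 3 to 8 fell. The median of HIF regulators was 0.036 to 0.154.

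With 1 library left out, the log2 fold change ranged from -0.025 to 0.047 for Arnt, -0.021 to 0.154 for Egln1, -0.079 to 0.109 for Egln2, -0.021 to 0.043 for Hk1, -0.080 to 0.143 for Pfkl, -0.111 to 0.094 for Ldha and -0.055 to 0.250 for Slc16a3.

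Changes of sign were seen in members with no call. The log2 fold change of Ldha was 0.020 with median-ratio scaling, 0.018 by limma-voom and 0.164 with the B cell score, which also gave -0.260 for Egln2, 0.079 for P4ha1, 0.081 for Slc2a3 and -0.111 for Gapdh. The other changes of sign came with 1 library left out, within the ranges above.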
